A study of Mus musculus with 18 samples.

Results

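The lysosomal genes examined here are a list of 35 genes given by name. They encode 9 proteins of the lysosomal membrane, 2 carriers and activators of lysosomal lipids, 8 glycosidases, 6 further hydrolases of sulfate esters, lipids and peptides, 7 subunits of the vacuolar proton pump (V-ATPase) and 3 transcription factors of the MiT/TFE family. All were looked up by gene symbol, with no use of a measured value. Of the 35 genes, 33 were found among the 20066 genes of the table of developmental stages, where *Psap* and *Lipa* were not analysed, and 35 among the 20268 genes of the table of fibroblasts.

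The study followed blood development from mouse embryonic stem cells by RNA sequencing and then asked whether transcription factors chosen from its network could turn fibroblasts towards blood. The stages came from a strain 129 embryonic stem cell line with GFP in the *Brachyury* gene: embryonic stem cells (ESC), mesoderm (MES, Bry-GFP+ and FLK1-), hemangioblast (HB, Bry-GFP+ and FLK1+), CD41+ hematopoietic progenitors (HP) and CD11b+ macrophages (MAC). Each stage had 2 replicate samples, for which the authors deposited 1 combined value. The remaining 8 libraries came from strain 129 mouse embryonic fibroblasts (MEFs) of embryonic day 14.5, collected after 12 or 21 days, with 1 library for each treatment and day.

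The MEF treatments were SL (*Scl*, another name of *Tal1*, with *Lmo2*), SFGL (*Scl*, *Fli1*, *Gata2* and *Lmo2*), FGL (*Fli1*, *Gata2* and *Lmo2*) and untreated fibroblasts (uFIB). The MEFs were wild type or carried a doxycycline-inducible *TAL1* transgene driven through rtTA, and the labels do not say which applies to which library. They had been sorted free of cells with blood and endothelial surface markers before lentiviral transduction, and the treated cultures received blood cytokines, among them M-CSF and GM-CSF. The labels do not say whether cells were selected before RNA was taken, and in bulk RNA fewer cells of a type and less RNA per cell cannot be told apart.

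Lysosomes are acidic compartments in which proteins, glycans, lipids and nucleic acids are taken apart. The V-ATPase pumps in the protons, the hydrolases work at that low pH, and most of them are tagged with mannose 6-phosphate in the Golgi and carried there by receptors. Membrane proteins such as LAMP1 and LAMP2 line the compartment with a coat of sugars, and transporters and channels export its products. The MiT/TFE factors TFEB, TFE3 and MITF bind E-boxes of the CLEAR type upstream of many of these genes. Macrophages are rich in lysosomes because they digest what they engulf.

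Promoter windows are shown first because they carry the E-box that MiT/TFE factors recognise. RefSeq promoters of build GRCm38.p6, the assembly also used for the files (mm10), covered 30 of the 35 genes, each as 250 bases before and 50 bases from the annotated start site. The E-box CACGTG, searched on both strands, stood in a promoter of 9 of these 30 genes (30%), against 8.09% of 27025 genes with a promoter in the table. Its extension TCACGTG, which contains the E-box, was in the same 9 genes, against 4.29% of genes. Each line gives the 9 genes' window, read 5′ to 3′ along the gene's strand, with TCACGTG on either strand in capitals.

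Lamp1: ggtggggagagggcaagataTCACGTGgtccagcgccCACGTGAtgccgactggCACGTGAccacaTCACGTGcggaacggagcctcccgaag
Mcoln1: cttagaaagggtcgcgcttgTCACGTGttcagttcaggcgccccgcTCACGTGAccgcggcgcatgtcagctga
Gla: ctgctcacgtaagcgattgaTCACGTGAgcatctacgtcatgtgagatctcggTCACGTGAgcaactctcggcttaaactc
Glb1: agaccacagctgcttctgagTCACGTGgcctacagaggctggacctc
Gaa: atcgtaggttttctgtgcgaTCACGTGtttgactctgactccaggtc
Arsa: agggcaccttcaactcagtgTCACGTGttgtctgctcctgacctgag
Atp6v0d1: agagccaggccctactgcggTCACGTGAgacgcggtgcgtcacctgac
Atp6v0e: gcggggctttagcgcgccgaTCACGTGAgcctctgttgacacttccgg
Atp6v1a: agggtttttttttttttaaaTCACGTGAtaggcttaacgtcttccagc

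The windows lie at chr8:13159079-13159171 on the plus strand (*Lamp1*), chr8:3500427-3500500 plus (*Mcoln1*), chrX:134601173-134601253 minus (*Gla*), chr9:114401009-114401055 plus (*Glb1*), chr11:119267802-119267848 plus (*Gaa*), chr15:89477415-89477461 minus (*Arsa*), chr8:105566041-105566088 minus (*Atp6v0d1*), chr17:26676378-26676425 plus (*Atp6v0e*) and chr16:44139364-44139411 minus (*Atp6v1a*). *Lamp1* stands out with 4 E-boxes between 61 and 10 bases before its start site, whereas *Mcoln1* and *Gla* hold 2 each and the other 6 genes 1 each. The palindromic CLEAR element, the E-box with GT before and AC after it, was in none of the 30 genes (0.37% of all genes). The M-box TCATGTG was found in *Gla*, *Ppt1*, *Scarb2* and *Tpp1* (4.31% of all genes), and GAGGAAGT, an ETS site of the PU.1 type, in *Gla* and *Gusb* (3.69%). These are matches of letters in a fixed window and not measured binding. *Asah1*, *Atp6v0d2*, *Atp6v1b2*, *Atp6v1h* and *Npc1* had no entry.

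In the stages, all 33 lysosomal genes were highest in MAC, a count for which the share of all genes was not taken. Values are FPKM (fragments scaled for transcript length and sequencing depth), summed over the transcription start sites (TSS) of a gene, and differences are on the log2(FPKM + 1) scale, which understates changes of low genes. With 1 combined value per stage there is no error and no test, so changes of at least 2-fold are counted among the 11983 genes that reached 1 FPKM in some stage. The 33 lysosomal genes together made up 0.366% of all FPKM in ESC, 0.380% in MES, 0.329% in HB and 0.378% in HP, and 2.46% in MAC. Their median level was 15.1 FPKM in HP, at the 77.1st percentile of the counted genes, and 129 FPKM in MAC, at the 96.3rd percentile.

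From HP to MAC, all 33 genes were at least 2-fold higher, as were 30.2% of all counted genes, and none was 2-fold lower, as were 12.5%. The median difference was 3.45 for the lysosomal genes and 0.30 for all genes. The MAC column sums to 381686 FPKM, whereas the other stages sum to between 180554 and 201844, and bringing all stages to 1 upper quartile moved the median of all genes to -0.17. After that scaling the split for all genes was 17.4% higher and 21.9% lower, the lysosomal median was 2.72, and 30 genes stayed at least 2-fold higher. The 3 that did not were *Gaa* (0.96), *Tfe3* (0.90) and *Laptm4a* (0.55).

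**Figure D1:**
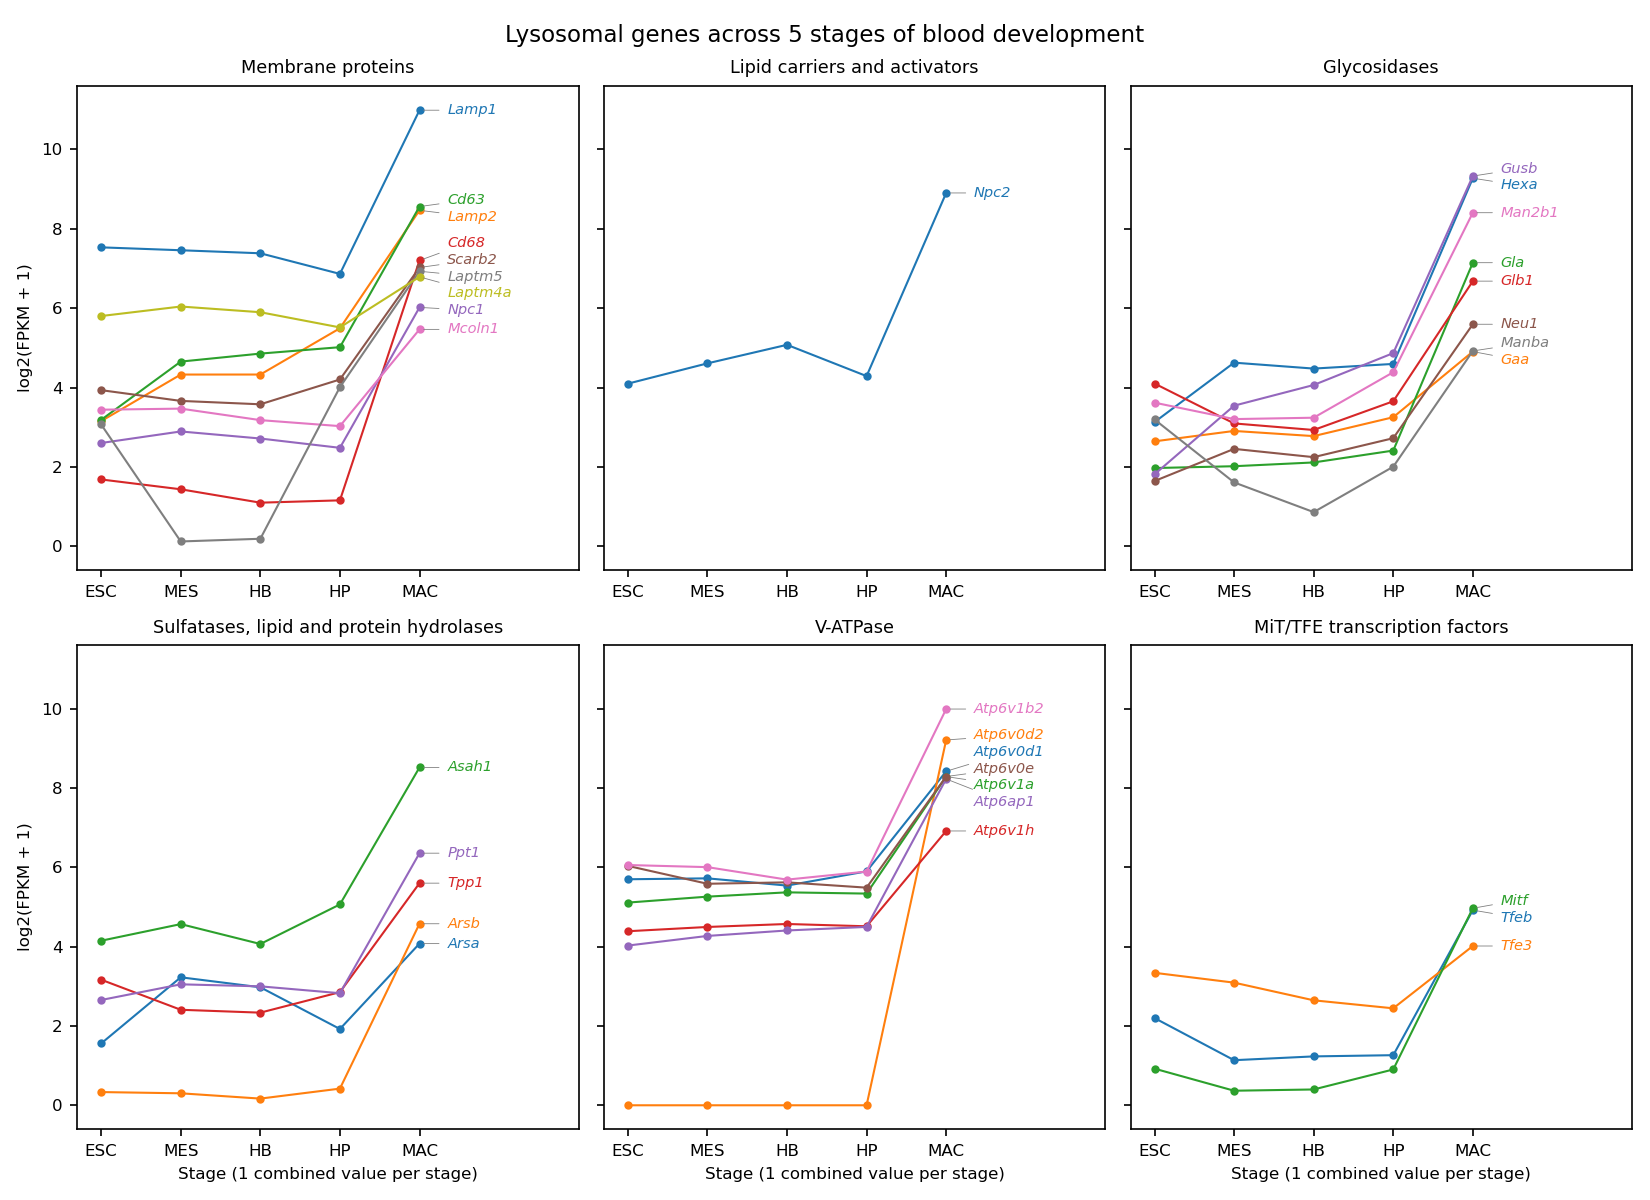
Level of each of the 33 lysosomal genes, as log2(FPKM + 1), in the 5 stages from ESC to MAC, in 6 panels by role. Points are the authors' combined values and have no error; every line ends highest in MAC, and *Atp6v0d2* is listed at 0 in the 4 earlier stages.

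The MAC to HP ratio of the 32 genes with a value above 0 in HP ran from 2.45 to 119, with a median of 10.5, and was at least 10 for 16 of them. In the 4 stages before MAC, 16 of 32 genes kept their lowest and highest value within 2-fold of each other. The share of all genes was not taken for either of these counts. From ESC to MES, 5 genes were at least 2-fold higher (15.2%, with 6.14% of all genes) and 4 lower (12.1%, with 6.46% of all). The labels name other processing tools for ESC than for the later stages, which cannot be told apart from this step. From MES to HB, no lysosomal gene passed 2-fold in either direction, against 2.15% of all genes higher and 2.81% lower, and scaling moved the median of all genes in this step from 0.09 to -0.01. From HB to HP, 4 genes were higher (12.1%, with 7.77% of all) and 1 lower (3.03%, with 7.71% of all).

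Among the membrane proteins, *Lamp1* was in every stage the most abundant of the 33 lysosomal genes analysed there. Its level was 184, 175, 166, 115 and 2032 FPKM from ESC to MAC, in the order ESC, MES, HB, HP and MAC that is kept for all such series of values, a difference of 4.13 from HP to MAC, or 3.82 relative to the median of all genes. *Lamp2*, the related glycoprotein that also serves as the receptor of chaperone-mediated autophagy in 1 of its splice forms, had 7.90, 19.1, 19.1, 44.0 and 353 FPKM. *Lamp2* thus climbed in steps past 2-fold, from ESC to MES (1.17) and from HB to HP (1.17), where *Lamp1* was level or lower. The part of *Lamp2* in the sum of both FPKM values was 4.11% in ESC, 27.6% in HP and 14.8% in MAC.

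*Cd68*, a heavily glycosylated macrophage sialomucin, was low up to HP and much higher in MAC. It was at 2.21, 1.70, 1.14, 1.23 and 146 FPKM from ESC to MAC. This was the largest ratio of MAC to HP among the lysosomal genes above 0 in HP, 119, with a difference of 6.05. *Cd63*, a tetraspanin of lysosomes and secretory granules, had 8.10 FPKM in ESC and 24.2 in MES (1.47), then 27.9, 31.4 and 377 FPKM in HB, HP and MAC. Of its 2 TSS, TSS1766 carried 98.6% of its FPKM in HP and 99.2% in MAC. *Scarb2*, which carries glucocerebrosidase to the lysosome, the calcium channel *Mcoln1* and the cholesterol exporter *Npc1* ended at 129, 43.2 and 63.9 FPKM in MAC, from 17.4, 7.15 and 4.58 in HP.

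The LAPTM pair behaved differently. *Laptm4a*, expressed in many cell types, was at 54.8, 64.9, 58.6, 44.7 and 110 FPKM from ESC to MAC. It had the smallest difference of the 33 genes (1.27). *Laptm5*, a lysosomal protein of blood cells, was at 7.39, 0.0862, 0.139, 15.1 and 121 FPKM. It was the gene with the largest change before MAC in both directions, -2.95 from ESC to MES and 3.82 from HB to HP. Of other blood genes in ESC, *Ptprc* (CD45) was at 0.0477 FPKM (5.66 in HP), *Coro1a* at 4.08 (37.5 in HP) and the embryonic globin *Hbb-bh1* at 29.9 (0.268 in MES). Their part in the *Laptm5* value was not tested. The MAC level of both LAPTM genes was close, with *Laptm5* at 52.5% of their sum.

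Among the proteins of the lumen, the median difference from HP to MAC was 3.52 for the 8 glycosidases and 3.45 for the 5 further hydrolases in this table, against 2.97 for the 9 membrane proteins and 2.95 for the 7 V-ATPase subunits. *Npc2*, which hands cholesterol to NPC1, had 16.1, 23.4, 32.7, 18.5 and 478 FPKM from ESC to MAC, a difference of 4.62. *Hexa*, the alpha subunit of hexosaminidase A, had 7.74, 23.7, 21.3, 23.2 and 619 FPKM in the same order, with 4.68 from HP to MAC. *Gla*, the alpha-galactosidase, was nearly flat at 2.92, 3.04, 3.32 and 4.32 FPKM and then 141 in MAC, a ratio of 32.6.

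*Gusb*, the beta-glucuronidase, had a larger value at each stage than at the one before, with 2.51, 10.6, 15.7, 28.2 and 642 FPKM. The other glycosidases were at least 2-fold higher in MAC as well. *Man2b1* (lysosomal alpha-mannosidase) went from 8.44 FPKM in HB to 19.9 in HP (1.15) and 338 in MAC (4.02). *Manba* (beta-mannosidase) had its lowest value in HB, 0.814 FPKM, after 8.15 in ESC and 2.05 in MES, and reached 3.01 in HP and 29.3 in MAC. *Glb1* (beta-galactosidase, counted together with the overlapping gene *Tmppe*) was 2-fold lower in MES (7.54 FPKM) than in ESC (16.2) and at 102 in MAC. *Neu1* (sialidase) ended at 47.3 FPKM, and *Gaa* (acid alpha-glucosidase) at 29.0 with a difference of 1.65, among the smallest of all.

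The remaining hydrolases spanned a wide range of levels. The sulfatase *Arsb* was between 0.124 and 0.338 FPKM in the 4 earlier stages and at 22.9 in MAC, 67.6 times the HP value. Its relative *Arsa* was at 1.94, 8.36, 6.86, 2.79 and 15.9 FPKM and was the one gene 2-fold lower from HB to HP (-1.05). *Asah1* (acid ceramidase), *Ppt1* (palmitoyl-protein thioesterase) and *Tpp1* (tripeptidyl peptidase) stood at 365, 80.8 and 47.5 FPKM in MAC, with differences of 3.45, 3.53 and 2.75 from HP.

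The V-ATPase was the most even group before MAC, and it held a gene with values above 0 in MAC only. *Atp6v1b2*, a B subunit of the ATP-splitting V1 sector, was at 65.5, 63.1, 50.5, 58.4 and 1014 FPKM from ESC to MAC (4.10 from HP). *Atp6v1a*, *Atp6v1h*, *Atp6v0e* and the accessory subunit *Atp6ap1* lay at 39.4, 21.8, 43.8 and 21.6 FPKM in HP and at 311, 120, 311 and 298 in MAC. No V-ATPase member passed 2-fold in a step before MAC.

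The d subunit of the membrane sector V0 comes in 2 forms that were unlike. *Atp6v0d1*, the common form, had 50.9, 51.7, 45.5, 58.6 and 341 FPKM from ESC to MAC. *Atp6v0d2*, the form known from osteoclasts and macrophages, was listed at 0 in ESC, MES, HB and HP and had 590 FPKM in MAC, so no fold is given. It made up 63.4% of the FPKM of both forms in MAC.

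**Figure D2:**
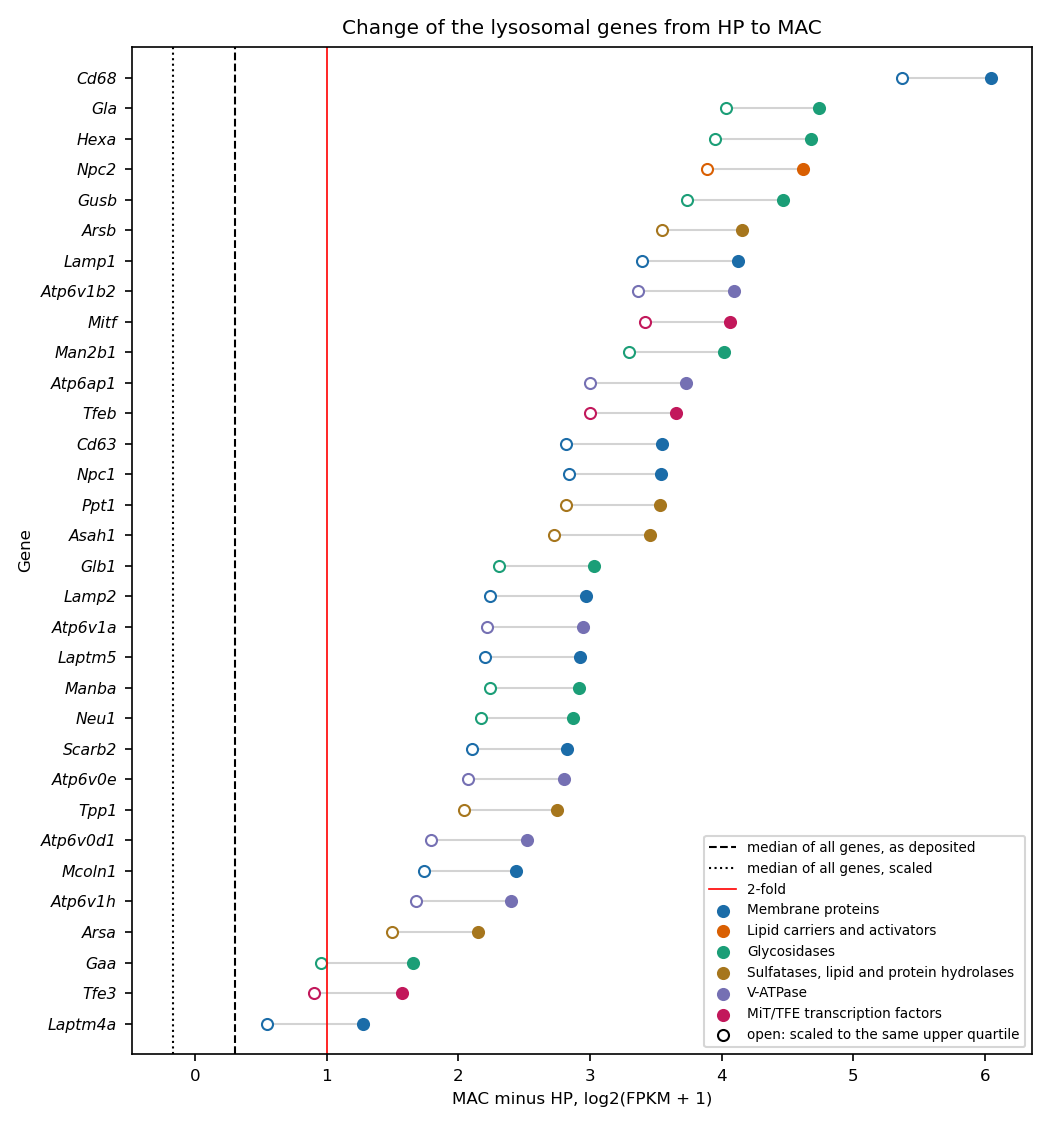
Difference between MAC and HP of each lysosomal gene, on the log2(FPKM + 1) scale, as deposited (filled points) and after scaling all stages to the same upper quartile (open points), coloured by role. The dashed and dotted lines are the medians of all 11983 genes, 0.30 and -0.17, and the red line is 2-fold; *Atp6v0d2*, listed at 0 in HP, is not drawn.

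All 3 MiT/TFE factors were higher in MAC than in HP, and for *Tfeb* and *Tfe3* the start site with most of the FPKM differed between both stages. *Mitf* was at 0.896, 0.290, 0.318, 0.870 and 30.3 FPKM from ESC to MAC (4.06 from HP to MAC). *Tfeb* was at 3.59, 1.2, 1.35, 1.40 and 29.2 FPKM (3.66 from HP to MAC), and *Tfe3* at 9.12, 7.52, 5.26, 4.44 and 15.2 FPKM (1.57). Before MAC, *Tfe3* thus had the highest level of the 3, and *Tfe3* and *Tfeb* were higher in ESC than in HP.

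For *Tfeb*, TSS8241 held 80.2% of the gene's FPKM in HP and 25.6% in MAC, while TSS8243 went from 0.0874 FPKM (6.24%) in HP to 20.4 FPKM (69.8%) in MAC. TSS8243 was already present in ESC, with 1.41 FPKM. For *Tfe3*, TSS21487 went from 1.75 FPKM (39.3%) in HP to 11.3 FPKM (74.8%) in MAC, whereas TSS21486 moved from 2.69 to 3.83 FPKM. TSS21487 was also above TSS21486 in ESC (6.49 against 2.63 FPKM) and MES (4.51 against 3.01), but not in HB (2.48 against 2.78). For *Mitf*, TSS16233 carried 96.2% in HP and 99.2% in MAC. The file gives these start sites only as identifiers within the gene's locus, so they could not be tied to a particular promoter sequence.

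The 9 genes with CACGTG had a median difference from HP to MAC of 2.80 (1.65 to 4.74), and the 19 without it that were in the table of stages a median of 3.54 (1.27 to 6.05), a description with no test. *Lamp1*, with the 4 E-boxes shown above, was at 4.13, and *Gaa*, with 1, at 1.65.

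Other genes of the lysosome from lists set beside the 35 were counted in the same step, in which 30.2% of all genes were at least 2-fold higher and 12.5% lower. Of 19 further enzymes and cofactors, 18 were higher and none lower (median 3.27, and 2.56 after upper-quartile scaling), led by *Gm2a*, the activator of GM2 ganglioside breakdown, with 0.412 FPKM in HP and 83.9 in MAC. Of 15 further membrane proteins, 14 were higher (median 2.32, scaled 1.62), the exception being *Laptm4b*, at 10.7 FPKM in HP and 9.89 in MAC. Of 12 further V-ATPase subunits, 10 were higher (median 3.0, scaled 2.28), among them *Tcirg1*, the a3 subunit, with 7.61 FPKM in HP and 284 in MAC. Of 10 genes for mannose 6-phosphate tagging, sorting and sulfatase activation (*Sumf1*), 7 were higher (median 1.72, scaled 1.02). The receptor *Igf2r* stood at 38.8 and 40.1 FPKM. Of 16 genes for nutrient sensing at the lysosome, 11 were higher and *Rragb* lower (median 1.71, scaled 1.005), with *Mtor* itself at 8.5 and 8.89 FPKM. The MiT/TFE relative *Tfec* went from 5.49 to 86.8 FPKM.

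The stage labels were set against marker genes. The 4 pluripotency markers summed to 610 FPKM in ESC and 0.189 in MAC. The sum of the red cell markers was 42.9, 0.311, 2.75, 6281 and 6.93 FPKM from ESC to MAC, so that ESC lay above MES and HB. Of the 3 mesoderm markers, *T* (*Brachyury*) was higher in MES (142 FPKM) than in HB (36.4). *Mixl1* and *Eomes* were higher in HB (80.4 and 55.0 FPKM) than in MES (46.9 and 34.9). The sum of all 3 was 224 FPKM in MES and 172 in HB. In the same table, the 7 macrophage markers found there summed to 18.6 FPKM in HP and 2249 in MAC.

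In the MEFs, the share of lysosomal genes that rose in SL and SFGL was close to that of all genes. With all libraries, a larger share fell than among all genes. How many fell in SL, lysosomal or not, and how far apart both shares lay depended on single libraries. The 35 genes made up 0.983% of all FPKM in uFIB at day 12 and 1.02% at day 21. Their part was 0.710% and 0.696% in SL, 0.751% and 0.710% in SFGL, and 0.910% and 0.904% in FGL. All FPKM summed to 388398 and 371459 in uFIB, 460258 and 384534 in SL, 475780 and 423079 in SFGL, and 373501 and 377015 in FGL. These totals enter the shares. The 35 genes themselves summed to 3819 and 3782 FPKM in uFIB, 3267 and 2677 in SL, 3571 and 3004 in SFGL, and 3401 and 3407 in FGL. Their median level, in contrast, was higher in SL and SFGL than in uFIB. It was 37.1 and 35.7 FPKM in uFIB, 50.9 and 48.8 in SL, 52.7 and 52.4 in SFGL, and 36.9 and 37.5 in FGL. Both tables were normalized separately, so levels are compared only within each.

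Differences were tested with limma on log2(FPKM + 1) with treatment and day as terms, over the 11989 genes whose mean reached 1 FPKM, with p-values adjusted by Benjamini-Hochberg over all of them. With 1 library per treatment and day, the error has 3 residual degrees of freedom and holds any difference of a treatment's effect between days. Values are n = 2 libraries per treatment, and 34 of the 35 genes were tested, *Atp6v0d2* being too low.

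The factors were checked first. *Tal1* was at 0.0414 and 0.415 FPKM in uFIB at days 12 and 21, 62.0 and 347 in SL, 58.0 and 119 in SFGL, and 7.04 and 0.0705 in FGL, where the label names no *Scl*. *Fli1* was at 3.43 and 3.02 FPKM in uFIB, 46.7 and 34.4 in SL, 41.2 and 27.8 in SFGL, and 8.29 and 3.35 in FGL. The libraries labelled FGL thus held some *Tal1* at day 12 and *Fli1* close to uFIB at day 21, and SL, whose label names no *Fli1*, held no less of it than SFGL. *Lmo2*, named in all 3 treatments, was at 0.499 and 2.28 FPKM in uFIB, 57.0 and 150 in SL, 48.4 and 128 in SFGL, and 36.2 and 66.5 in FGL. *Gata2* was at 1.80 and 2.13 FPKM in uFIB, 68.8 and 62.6 in SL, whose label does not name it, 110 and 132 in SFGL, and 21.9 and 35.1 in FGL. In FGL, *Lmo2* and *Gata2* thus rose (adjusted p = 0.00404 and 0.0334, limma). FPKM does not separate the endogenous gene from the introduced one. Directions for FGL are those of the libraries labelled FGL.

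In SL against uFIB, 8 of 34 lysosomal genes rose (23.5%, with 25.4% of all tested genes) and 14 fell (41.2%, with 27.1% of all). In SFGL against uFIB, 10 rose (29.4%, with 27.9% of all) and 13 fell (38.2%, with 30.8% of all). The median difference was -0.24 in SL and -0.27 in SFGL, with -0.03 for all genes in both. Both comparisons share the uFIB libraries. Leaving out uFIB or SL of day 12 gave lysosomal medians of -0.18 and -0.25 in SL, with -0.02 and -0.05 for all genes. Leaving out uFIB or SL of day 21 gave -0.18 and -0.23, with -0.04 and -0.02 for all genes. Fewer genes fell in SL in these fits, among the lysosomal genes and among all genes, and both shares lay closer together than with all libraries.

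**Figure D3:**
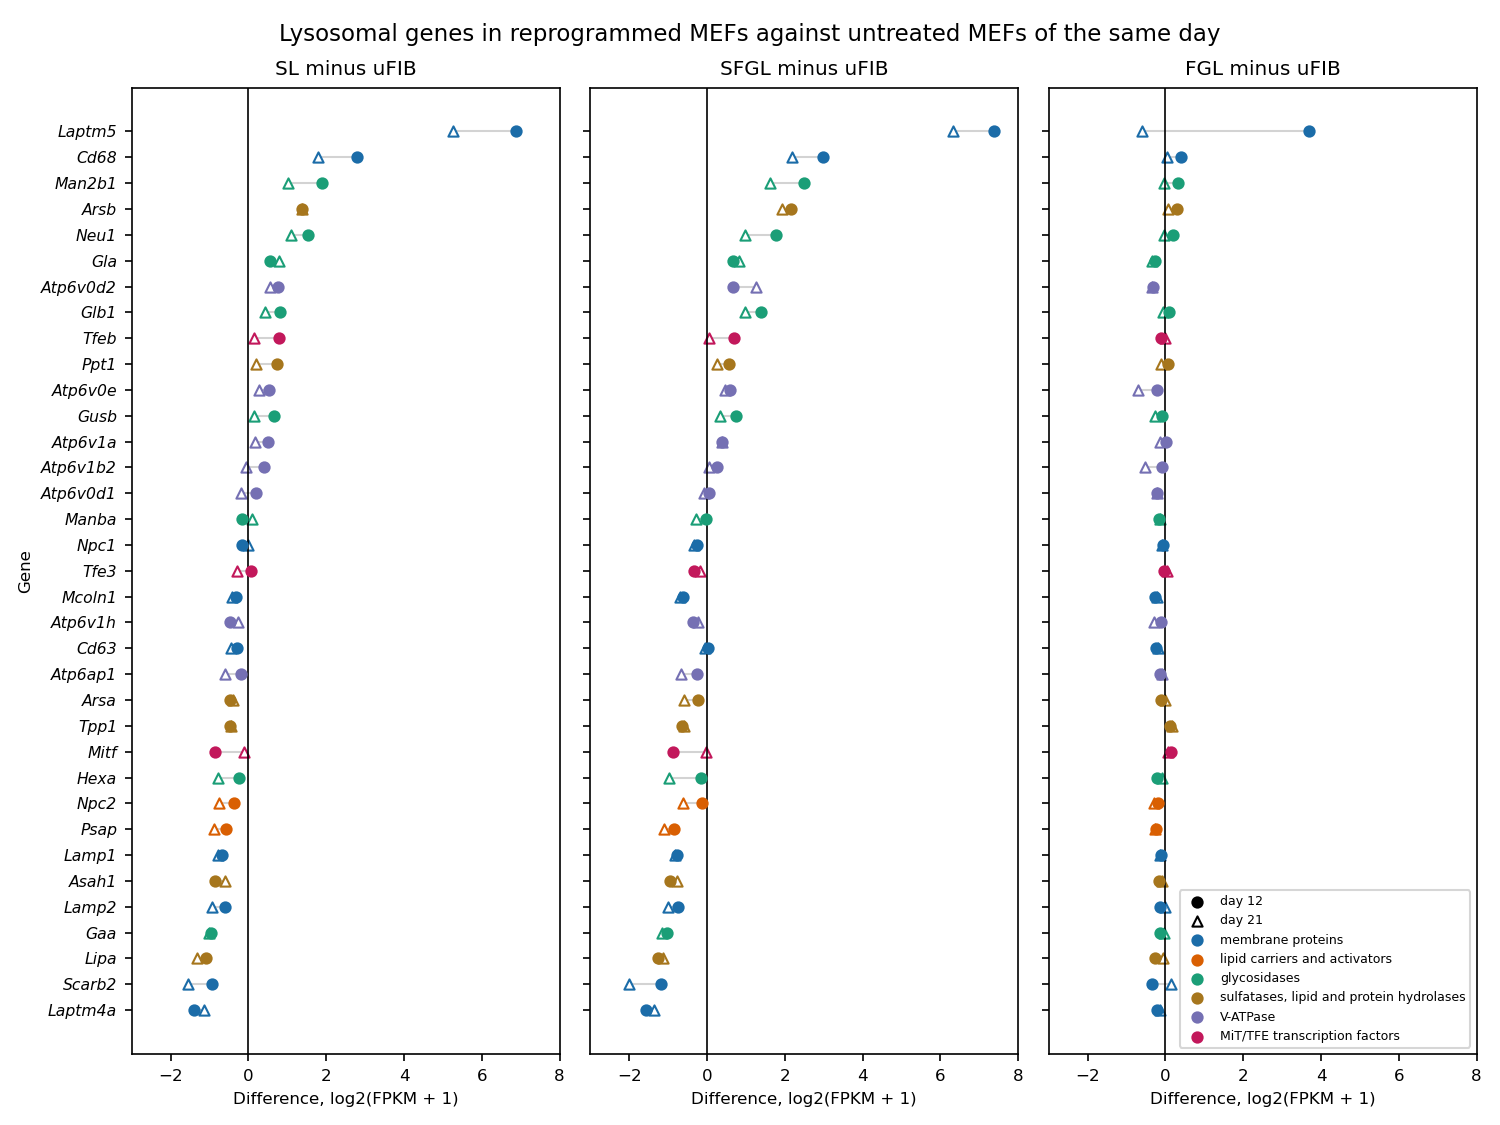
Difference of each of the 35 lysosomal genes from uFIB of the same day, on the log2(FPKM + 1) scale, in SL, SFGL and the libraries labelled FGL, ordered by the mean in SL and coloured by role. Each symbol is 1 library against 1 library (circles day 12, triangles day 21); *Laptm5* and *Cd68* lie highest and *Laptm4a* lowest in SL, and FGL stays near 0 but for *Laptm5* at day 12.

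*Laptm5*, the blood cell protein, had the largest rise. It was at 0.747 FPKM in uFIB at day 12 and 1.29 at day 21, 204 and 86.0 in SL, 288 and 183 in SFGL, and 21.6 and 0.509 in FGL. All 4 SL and SFGL libraries lay far above both uFIB libraries. The difference was 6.06 ± 0.96 (SE) in SL (adjusted p = 0.00487, limma) and 6.85 ± 0.96 in SFGL (adjusted p = 0.0026, limma). *Laptm5* is also in the list of blood markers.

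*Cd68* was next, at 2.93 and 3.38 FPKM in uFIB, 26.2 and 14.3 in SL, 30.1 and 18.8 in SFGL, and 4.21 and 3.48 in FGL. It rose by 2.30 ± 0.25 in SL (adjusted p = 0.00175, limma) and by 2.58 ± 0.25 in SFGL (adjusted p = 0.000915). The glycosidases *Man2b1* and *Neu1* rose too. *Man2b1* had 21.8 and 27.4 FPKM in uFIB, 84.1 and 56.4 in SL, 128 and 86.6 in SFGL, and 27.3 and 26.7 in FGL, a rise of 1.46 ± 0.24 in SL (adjusted p = 0.0056, limma). *Neu1* had 10.7 and 9.50 FPKM in uFIB, 32.7 and 21.5 in SL, 38.7 and 19.8 in SFGL, and 12.3 and 9.15 in FGL, a rise of 1.31 ± 0.19 in SL (adjusted p = 0.00387, limma).

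*Arsb* rose as well. It had 29.7 and 35.7 FPKM in uFIB, 79.4 and 93.9 in SL, 137 and 138 in SFGL, and 36.9 and 37.5 in FGL. The rise was 1.38 ± 0.11 in SL (adjusted p = 0.00108, limma) and 2.05 ± 0.11 in SFGL (adjusted p = 0.000511). *Gla* (0.67 ± 0.11), *Glb1* (0.62 ± 0.13) and *Ppt1* (0.46 ± 0.15) were the other genes that rose in SL. In SFGL, *Ppt1* missed the threshold (adjusted p = 0.0619, limma) and *Gusb*, *Atp6v0e* and *Atp6v1a* passed it, with 0.55, 0.53 and 0.38. The calls of *Gusb* and *Atp6v0e* in SFGL were lost without uFIB of day 12 or either SFGL library, that of *Atp6v1a* held in 3 of the 8 fits that left out 1 library, and that of *Ppt1* in SL in 2 of the 8. *Glb1* in SL missed the threshold without uFIB or SL of day 12.

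The 5 lowest genes in SL were *Laptm4a*, *Scarb2*, *Lipa*, *Gaa* and *Lamp2*. *Laptm4a* had 264 and 263 FPKM in uFIB, 100 and 119 in SL, 88.7 and 102 in SFGL, and 227 and 239 in FGL. It fell by 1.26 ± 0.11 in SL (adjusted p = 0.0012, limma) and by 1.46 ± 0.11 in SFGL (adjusted p = 0.000595), so that the LAPTM pair moved in opposite directions. The part of *Laptm5* in the sum of both was 0.282% and 0.488% in uFIB, 67.1% and 41.9% in SL and 76.5% and 64.2% in SFGL.

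*Lipa*, the acid lipase that frees cholesterol and fatty acids, had 60.1 and 50.4 FPKM in uFIB, 27.9 and 19.8 in SL, 24.4 and 22.3 in SFGL, and 50.02 and 48.4 in FGL. It fell by 1.19 ± 0.13 in SL (adjusted p = 0.00174, limma). *Gaa* had 180 and 165 FPKM in uFIB, 92.5 and 81.3 in SL, 88.4 and 73.9 in SFGL, and 164 and 161 in FGL, a fall of 0.98 ± 0.10 in SL (adjusted p = 0.00147, limma). For both genes, the uFIB values lay above all SL and SFGL values.

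*Scarb2* had 71.2 and 104 FPKM in uFIB, 37.0 and 34.9 in SL, 30.9 and 25.3 in SFGL, and 56.2 and 116 in FGL. It fell by 1.24 ± 0.32 in SL (adjusted p = 0.0242, limma), a call that was lost when any of the uFIB or SL libraries was left out (adjusted p from 0.0579 to 0.138). *Lamp2* had 260 and 258 FPKM in uFIB, 173 and 134 in SL, 155 and 128 in SFGL, and 235 and 254 in FGL. It fell by 0.77 ± 0.14 in SL (adjusted p = 0.00844, limma), which missed the threshold without uFIB of day 21 (0.0547) or SL of day 21 (0.0575). *Lamp1*, at 329 and 330 FPKM in uFIB and 207 and 191 in SL, fell by 0.73 ± 0.09, and *Lamp2* kept between 40.8% and 45.9% of the sum of both in all 8 libraries.

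*Psap*, the precursor of the saposins and the most abundant hydrolase cofactor here, had 520 and 513 FPKM in uFIB, 350 and 278 in SL, 291 and 239 in SFGL, and 436 and 422 in FGL. It fell by 0.73 ± 0.12 in SL (adjusted p = 0.0059, limma). *Asah1* (-0.73), *Npc2* (-0.56), *Tpp1* (-0.47), *Arsa* (-0.44), *Cd63* (-0.37), *Atp6v1h* (-0.37) and *Mcoln1* (-0.37) also fell in SL. With 1 library left out at a time, the calls of *Arsa*, *Cd63* and *Atp6v1h* held in 2 of 8 fits each, that of *Mcoln1* in 4, and those of *Npc2* and *Tpp1* in 5. *Hexa* had -0.52 ± 0.25 in SL (adjusted p = 0.132, limma).

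By role, 4 of 8 glycosidases rose and 1 fell in SL, with a median of 0.51, and 2 of 9 membrane proteins rose and 6 fell, with a median of -0.37, where 25.4% of all genes rose and 27.1% fell. Differences between the roles were not tested. Both lipid carriers and activators fell. Of the 6 further hydrolases, 2 rose and 4 fell. In the V-ATPase, 1 of 6 tested subunits (*Atp6v1h*) fell in SL and the median was 0.08, with *Atp6v0d1* between 60.3 and 81.4 FPKM in all 8 libraries. *Atp6v0d2* was at 0.427 and 0.316 FPKM in uFIB, 1.43 and 0.939 in SL, and 1.26 and 2.14 in SFGL, so that the form that led in MAC stayed at or under 3.09% of the sum of both.

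**Figure D4:**
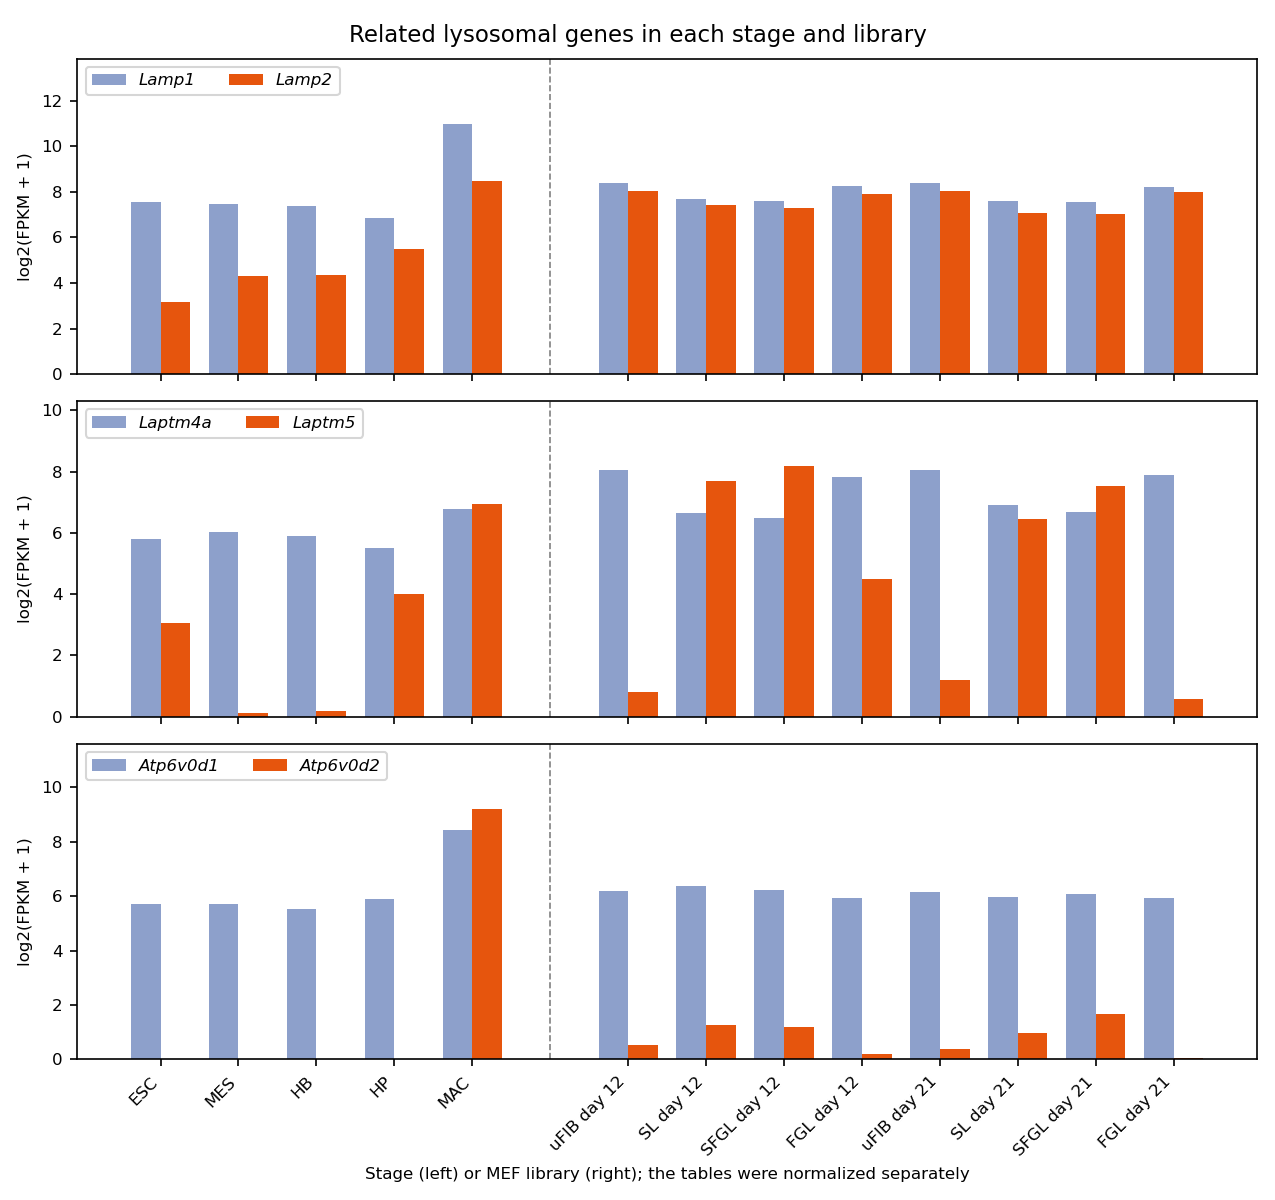
Level of *Lamp1* and *Lamp2*, *Laptm4a* and *Laptm5*, and *Atp6v0d1* and *Atp6v0d2*, as log2(FPKM + 1), in the 5 stages (left of the dashed line) and the 8 MEF libraries (right), which were normalized separately. Each bar is 1 value with no error; *Laptm5* exceeds *Laptm4a* in MAC, SL of day 12 and both SFGL libraries, and *Atp6v0d2* exceeds *Atp6v0d1* in MAC only.

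None of the MiT/TFE factors passed the test in SL or SFGL. *Tfeb* had 4.52 and 4.61 FPKM in uFIB, 8.54 and 5.20 in SL, and 7.89 and 4.87 in SFGL (0.47 ± 0.23 in SL, adjusted p = 0.141, limma). *Mitf* had 8.21 and 3.16 FPKM in uFIB, 4.10 and 2.86 in SL, and 4.0 and 3.06 in SFGL, lower than uFIB mainly at day 12. *Tfe3*, with 24.01 and 23.9 FPKM in uFIB and between 18.9 and 25.1 in SL and SFGL, was the highest of the 3 in every MEF library. Their relative *Tfec*, from the list of nutrient sensing and control, rose by 2.94 ± 0.36 in SL (adjusted p = 0.0024, limma).

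In the libraries labelled FGL, 0 of 34 lysosomal genes rose or fell by limma (0.0167% of all genes rose and 0% fell), with 0 higher and 3 lower at an unadjusted p under 0.05. The 3 were *Atp6v0e*, *Gla* and *Mcoln1*, and 465 of 11989 genes in all passed that p in either direction. SFGL against SL gave 0 in either direction (0% of all genes each way), with 3 higher and 1 lower at an unadjusted p under 0.05. Of all 11989 genes, 1058 passed that p in either direction. The largest difference of the lysosomal genes that passed it was *Arsb* (0.66 ± 0.11, adjusted p = 0.376, limma). Between days, *Npc1* alone fell from day 12 to day 21 (1.43% of all genes fell and 1.19% rose), by 0.44 ± 0.07 (adjusted p = 0.0476, limma), and was at 21.7, 19.4, 18.0 and 20.6 FPKM in uFIB, SL, SFGL and FGL of day 12 and at 15.5, 15.5, 12.1 and 14.6 in those of day 21. This call was lost when any 1 library was left out.

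Genes in the further lists were called both ways in SL, in which 25.4% of all genes rose and 27.1% fell. Of 20 further enzymes and cofactors, 2 rose, *Dnase2a* (1.32 ± 0.14) and *Galns* (1.19 ± 0.25), and 9 fell, among them *Ids* (-1.13 ± 0.10). Of 15 further membrane proteins, 1 rose, *Cln3* (1.48 ± 0.30), and 5 fell. Of 14 tested further V-ATPase subunits, 3 rose, led by *Tcirg1* (1.2 ± 0.22), and 2 fell. Of the 10 genes for mannose 6-phosphate tagging, sorting and sulfatase activation, 3 rose and 2 fell. The receptor *M6pr* was at 0.65 ± 0.13 and *Sumf1*, which activates all sulfatases, at -1.12 ± 0.13. Of 15 tested genes for nutrient sensing, 3 rose and 3 fell.

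Markers of other cell types moved with these differences. The 9 macrophage markers in this table summed to 21.9 and 35.4 FPKM in uFIB, 2759 and 1525 in SL, 1346 and 1136 in SFGL, and 240 and 12.3 in FGL, at days 12 and 21. Most of the sum was *Lyz2*, at 2525 and 1429 FPKM in SL, while *Csf1r* was at 0.884 and 0.734 in SL, and *Fcgr1*, *Mrc1* and *Msr1* at 0 to 1.18. Of the others, *Itgam* (CD11b) was at 0.0366 and 1.37 FPKM in uFIB and 156 and 64.1 in SL, *Cd14* at 6.30 and 3.70 in uFIB and 50.2 and 23.4 in SL, *Mpeg1* at 0.343 and 2.09 in uFIB and 19.7 and 4.50 in SL, and *Emr1* at 0.0359 and 0.0251 in uFIB and 5.35 and 1.89 in SL. The 3 mast cell and basophil markers (*Cpa3*, *Mcpt8* and *Ms4a2*) summed to 1.43 and 2.29 FPKM in uFIB and 827 and 737 in SL. They summed to 807 and 724 FPKM in SFGL, and 38.03 and 4.70 in FGL. *Mcpt8*, a basophil protease, made up most of the SL sum, at 736 and 663 FPKM. The 6 fibroblast markers summed to 7084 and 5514 FPKM in uFIB, 2476 and 1539 in SL, 2014 and 1224 in SFGL, and 5987 and 5585 in FGL. The 3 red cell markers summed to 0.0673 and 0.118 FPKM in uFIB, 105 and 206 in SL, 52.9 and 185 in SFGL, and 27.1 and 0.231 in FGL. The 4 blood progenitor markers summed to 21.5 and 25.9 FPKM in uFIB, 120 and 120 in SL, 187 and 209 in SFGL, and 34.6 and 25.9 in FGL. Most of the uFIB sum was *Runx1*, at 19.9 and 24.5 FPKM, with *Itga2b*, *Kit* and *Gata1* at 0 to 1.10. In SL, *Runx1* was at 39.6 and 31.0 FPKM and *Itga2b* at 49.7 and 53.6. The part of these cell types in the lysosomal differences was not tested.

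Set side by side, the HP to MAC step and SL gave different orders of the lysosomal genes. *Hexa*, *Npc2* and *Lamp1*, with differences of 4.68, 4.62 and 4.13 from HP to MAC, had -0.52, -0.56 and -0.73 in SL, and *Neu1*, with 2.87 in MAC, had 1.31. *Cd68* had 6.05 from HP to MAC and 2.30 in SL, *Laptm5* 2.92 and 6.06, *Arsb* and *Man2b1* had 4.16 and 4.02 from HP to MAC and 1.38 and 1.46 in SL, and *Gaa* and *Laptm4a*, among the 3 genes with the smallest differences in MAC, fell in SL. The genes with an E-box had a median of 0.00 in SL and those without it -0.37.

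**Figure D5:**
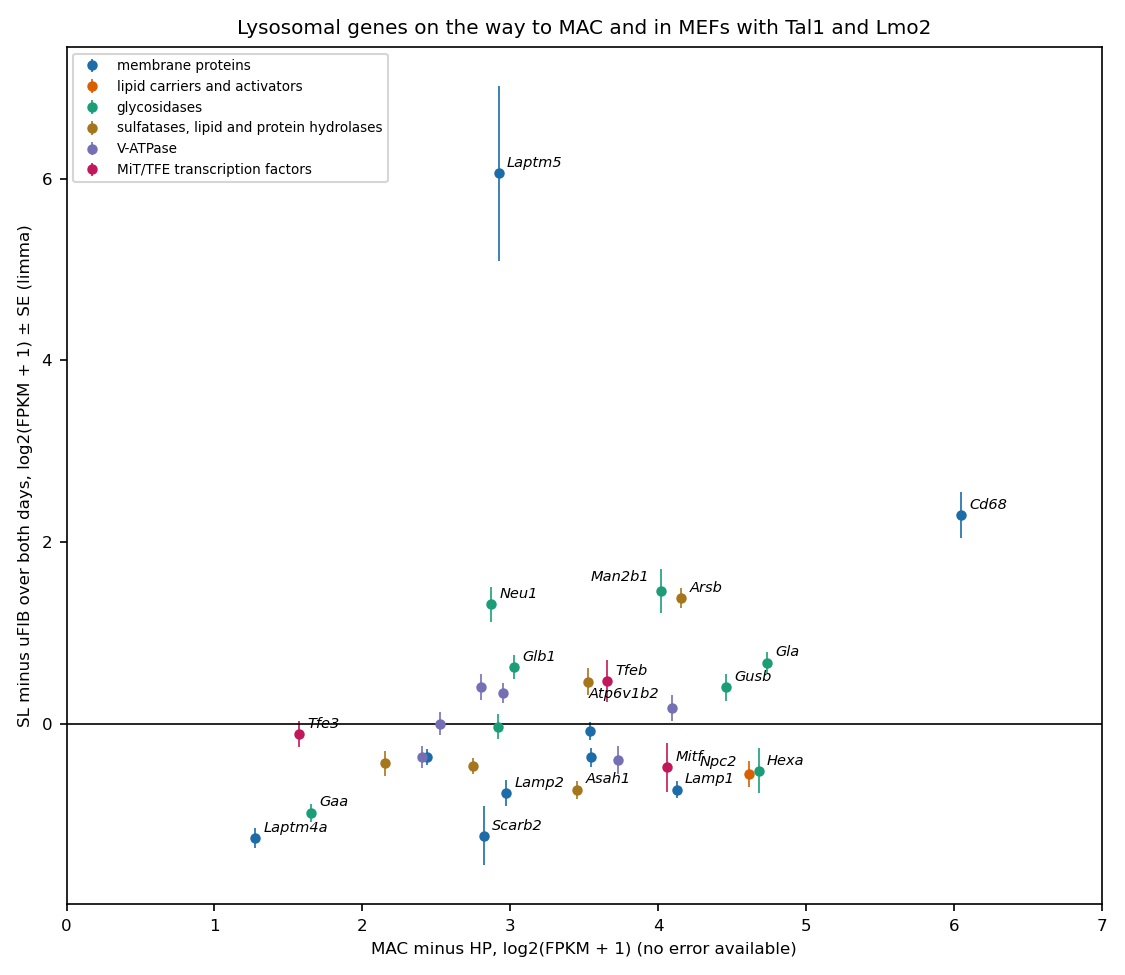
Difference from HP to MAC (horizontal, no error available) and limma difference of SL from uFIB over both days (vertical, bars are SE) of each lysosomal gene tested in both tables, on the log2(FPKM + 1) scale and coloured by role. All genes lie right of 0, and in SL *Laptm5*, *Cd68*, *Man2b1*, *Arsb* and *Neu1* lie highest and *Laptm4a* and *Scarb2* lowest.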

How the data were processed

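RNA was ribosome-depleted and sequenced. Per the study's methods, the stages were read as 50 bp single-end SOLiD reads aligned with SHRiMP to mm10, with duplicates removed by Picard. Per the labels, the MEF libraries were processed with TopHat and Cufflinks. The labels name Bowtie and HOMER for ESC and Cufflinks for the later stages, so the processing of ESC may differ. Tool versions are not given in the sources used here. The authors deposited FPKM in both tables: 1 value per TSS and stage with replicates combined, and 1 value per gene and MEF library. FPKM hold no counts, so the depth behind each value is unknown. The most common ratio of low values (under 0.3 FPKM) to those of uFIB of day 12 put the MEF libraries at an estimated 0.586 (FGL, day 21) to 1.56 (SL, day 12) times its depth. 1 column of the table of stages, HE (hemogenic endothelium), belongs to no sample here and was not used. The study places this stage between HB and HP, so the step from HB to HP passes over it.

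TSS rows were summed by gene symbol. Stage differences were counted at 2-fold on log2(FPKM + 1). MEFs were fitted with limma 3.58.1 (R 4.3.3) using trended empirical Bayes, treatment plus day, after a minimum mean of 1 FPKM, with an adjusted p of 0.05 as threshold. The step was tested on simulated data for SL against uFIB over 11989 genes. In these, 100 better expressed genes were changed by 1 and 100 by 2 on the log2 scale. No other gene changed, and the day had no effect. The step recovered 58% of changes of 1 and 87% of changes of 2, with 5 false among 150 calls. In the real data 3050 genes rose and 3244 fell in SL, so these rates need not hold there. Replicates are separate samples in the labels, and nothing says whether MEF libraries came from separate cultures.

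Every lysosomal gene is given a value or falls in a count. Values in every stage are given for the MiT/TFE factors, 3 related pairs and the 5 largest differences from HP to MAC, and values in every MEF library for the 5 highest and the 5 lowest genes in SL. The members, lists and tests were chosen with earlier results of these data known. Alternatives were other pseudocounts, filters, fold limits, upper-quartile scaling, the highest TSS only, fits with no trend or no day term, and each library left out.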

Additional observations from a re-analysis of the deposited data

Results flagged for a closer look

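*Laptm5* moved in opposite directions on the 2 days in the libraries labelled FGL. On the log2(FPKM + 1) scale it was 3.70 above uFIB at day 12, with 21.6 against 0.747 FPKM, and -0.60 from uFIB at day 21, with 0.509 against 1.29 FPKM. The difference between days was not tested, since each day has 1 library per treatment. *Tal1* was at 7.04 FPKM in the FGL library of day 12 and 0.0705 in that of day 21. The 3 mast cell and basophil markers summed to 38.03 and 4.70 FPKM there, and the 9 macrophage markers to 240 and 12.3. The part of these in the difference was not tested.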

How the results depend on the processing

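No paired analysis was possible because the stage values combine the replicates whose numbers could pair, and the MEF libraries carry no replicate number. The MEF fit holds the day as a term. From HP to MAC, 33 genes were at least 2-fold higher in all alternatives but upper-quartile scaling (30). Of all genes, between 17.4% (upper-quartile scaling) and 41.4% (limit of 1.5-fold) were higher in the alternatives. The lysosomal median was 3.49 with a pseudocount of 0.001 or 0.1. It was 2.72 after upper-quartile scaling, which took *Gaa*, *Laptm4a* and *Tfe3* under 2-fold. From MES to HB, 1 gene was lower with a pseudocount of 0.001 or 0.1 or a limit of 1.5-fold (9.62%, 7.01% and 6.99% of all genes). From HB to HP, 7 genes were higher with a pseudocount of 0.001 (14.15% of all). At 1.5-fold, 8 were higher (14.75% of all) and 2 lower (18.41% of all). In SL, 9 of 34 lysosomal genes fell with no day term, as did 2593 of 11989 genes in all. Leaving out 1 library of the SL or SFGL comparison with uFIB also lowered the number of all genes called in it. Fewer lysosomal genes fell in SL without any 1 uFIB or SL library, and their share then lay closer to that of all genes. The numbers called in SFGL moved as well. With 1 library left out, calls in FGL and in SFGL against SL stayed absent, and the call between days was lost. The fall of *Npc1* between days was also lost with no filter, upper-quartile scaling, limma with no trend or no FGL libraries (0 genes). Of the genes called in SL, 6 of 8 that rose (*Arsb*, *Cd68*, *Gla*, *Laptm5*, *Man2b1*, *Neu1*) and 6 of 14 that fell (*Asah1*, *Gaa*, *Lamp1*, *Laptm4a*, *Lipa*, *Psap*) kept the call in all alternatives run, as did 7 of 10 that rose (the same 6 and *Glb1*) and 9 of 13 that fell (the same 6, *Lamp2*, *Mcoln1* and *Tpp1*) in SFGL. The 3 residual degrees of freedom limit the MEF tests, and the stages have no error. The cause of these shifts was not tested.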
